A study of Homo sapiens with 6 samples.

Results

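The immediate early genes described here are 10 genes, FOS, FOSB, FOSL1, JUN and JUNB of the AP-1 transcription factor, EGR1, and the phosphatase genes DUSP1, DUSP4, DUSP5 and DUSP6. They were found by their gene symbol, each in 1 row of the count table, which holds 31369 genes, and of the FPKM table, which holds 30896. The RNA came from HK-2, an immortalized line of human proximal tubule epithelial cells, in 2 groups of 3 samples. The control group (NC) carries a wild-type genotype entry, and the overexpression group (OE) was transfected with a plasmid for *PPM1K*, the mitochondrial phosphatase that activates branched-chain keto acid dehydrogenase. Both groups share the entries Day 10 and chronic kidney disease as treatment. The titles read shControl and shPPM1K, as for a knockdown, against the genotype entries, and the groups follow the genotype. The cell line entries carry a running number after HK in place of 1 name. Whether NC received an empty plasmid, and which promoter drove *PPM1K*, is not given in the sources used here. The cells were kept in serum-free medium before transfection, and fresh medium was added some hours later. The labels do not say whether the samples of a group came from separate cultures, so the p-values measure the spread between these samples, which may be technical.

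Immediate early genes are transcribed within minutes of a growth factor, serum or stress signal, from factors that are already in the cell, and most of their mRNAs decay quickly. The name is used here for the whole set, and the time course of no member was measured. FOS and JUN proteins pair through a leucine zipper to form AP-1, and EGR1 is a zinc finger factor. The signal is carried by the MAP kinases ERK, JNK and p38, and the DUSP genes encode the phosphatases that switch these kinases off again. In the kidney tubule, these genes are known as early markers of injury and of mitogen stimulation.

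In OE the set split into 2 directions. FOS, FOSB, JUNB, EGR1 and DUSP1 were lower and FOSL1, JUN, DUSP5 and DUSP6 were higher at an adjusted p under 0.05, while DUSP4 did not pass. The test was the quasi-likelihood F-test of edgeR, with p-values adjusted by Benjamini-Hochberg over 15878 genes, and all 10 genes passed its filter on low counts. The 5 lower genes stand beside 23.7% of all tested genes that were lower at this threshold, and the 4 higher genes beside 24.9% that were higher. With the added rule of a fold change above 2 or below 0.5, FOS and FOSB were called lower, where 3.79% of all tested genes were called, and no member was called higher by edgeR or DESeq2, where 1.73% were called. In CPM, the count scaled to the library size after TMM normalization, NC and OE did not overlap in any of the 10 genes, as in 55.3% of all tested genes. For each of the 10 genes, the exact two-sided permutation p over the samples was 0.1, the smallest that 3 samples against 3 allow. RNA was taken from whole cultures, so fewer cells with a transcript and less of it in each cell cannot be told apart.

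**Figure D1:**
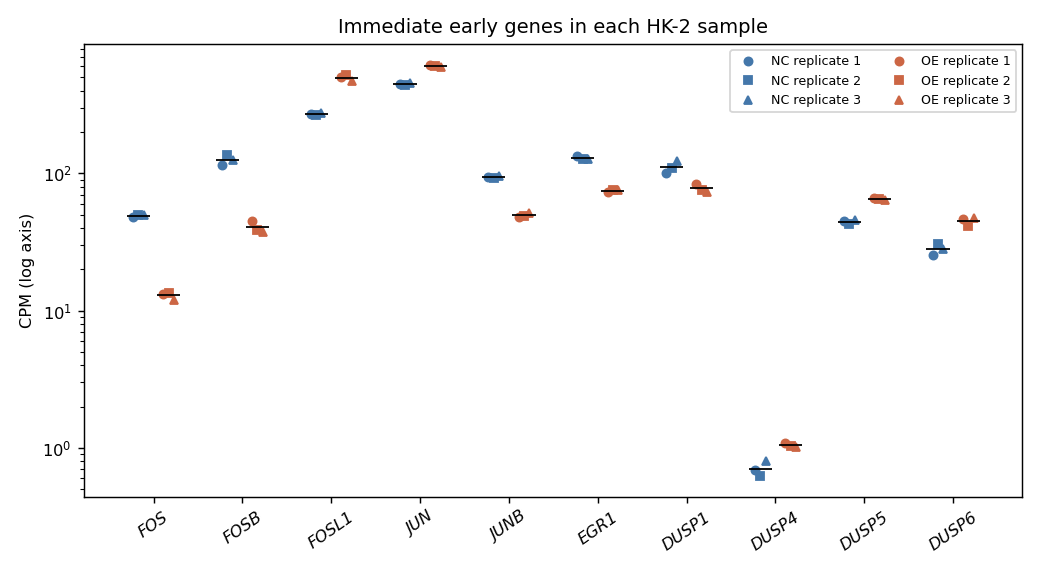
CPM of the 10 immediate early genes in each sample on a log axis, NC in blue and OE in orange, with a marker for each replicate and a black line at the group mean. FOS lies near 49 in NC and 13 in OE, FOSL1 near 271 and 497, and DUSP4 near or below 1 in both groups.

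Total counts ranged from 34635770 to 36116963 per sample in NC and from 36033404 to 39850802 in OE. *PPM1K* had a mean CPM of 1.03 (SD 0.468, n = 3) in NC against 86.3 (SD 5.14, n = 3) in OE. NC replicate 2 stood apart, with 3551 genes that had a count in no other sample, against 449 to 766 in the others. Without NC replicate 2 edgeR called the same 5 members lower and the same 4 higher. By the mean chi-square per gene between samples of a group, OE replicate 3 lay furthest. It had 11 against OE replicate 1 and 9.93 against OE replicate 2, where the other pairs had 4.83 to 6.67. Without OE replicate 3 the members again split into 5 lower and 4 higher. Of 14 tubule epithelium markers, 6 had a CPM over 1 in every sample. The mature proximal tubule genes LRP2, CUBN, AQP1, SLC34A1 and ANPEP had a mean CPM of at most 0.395 in either group, so defining markers of the labelled cell were near 0, while KRT8, KRT18, KRT19, EPCAM and PAX8 had 222 to 2159. The summed CPM of this list was 3849 to 4138 in NC and 3055 to 3285 in OE, with 7 of 11 tested genes lower and 1 higher. For 4 fibroblast markers it was 17.7 to 18.9 in NC and 7.58 to 8.01 in OE, and both tested genes, LUM and COL1A1, were lower. For 4 endothelial markers it was 5.06 to 6.40 in NC and 6.92 to 8.05 in OE, with 2 of 3 tested genes higher and 0 without NC replicate 2. For 4 blood cell markers it was at most 0.929 in any sample, and PTPRC and CD3E had at most 2 counts in any sample. The part of these markers in the results below was not tested.

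Sequence before the transcript start was compared because the members moved in 2 directions. RefSeq promoter windows on GRCh38.p14 were matched for 7 of the 10 genes, and not for FOSL1, DUSP4 and DUSP5. The 250 bases before the start are printed for the 5 genes that fell, FOS, FOSB, JUNB, EGR1 and DUSP1, and for JUN, which rose. The windows are chr14:75278578-75278827 on the plus strand for FOS, chr19:45467746-45467995 on the plus strand for FOSB, chr19:12791236-12791485 on the plus strand for JUNB, chr5:138465229-138465478 on the plus strand for EGR1, chr5:172771196-172771445 on the minus strand for DUSP1 and chr1:58784048-58784297 on the minus strand for JUN. Capitals mark the matches to the motifs searched.
FOS: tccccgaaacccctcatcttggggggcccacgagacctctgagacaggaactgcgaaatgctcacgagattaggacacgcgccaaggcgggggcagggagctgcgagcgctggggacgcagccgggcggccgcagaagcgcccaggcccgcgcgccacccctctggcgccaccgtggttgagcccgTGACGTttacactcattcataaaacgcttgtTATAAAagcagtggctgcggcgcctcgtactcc
FOSB: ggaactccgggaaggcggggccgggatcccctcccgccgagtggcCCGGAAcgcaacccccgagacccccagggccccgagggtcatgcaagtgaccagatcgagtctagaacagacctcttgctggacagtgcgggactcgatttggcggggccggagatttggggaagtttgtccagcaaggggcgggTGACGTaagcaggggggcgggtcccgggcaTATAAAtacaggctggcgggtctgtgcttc
JUNB: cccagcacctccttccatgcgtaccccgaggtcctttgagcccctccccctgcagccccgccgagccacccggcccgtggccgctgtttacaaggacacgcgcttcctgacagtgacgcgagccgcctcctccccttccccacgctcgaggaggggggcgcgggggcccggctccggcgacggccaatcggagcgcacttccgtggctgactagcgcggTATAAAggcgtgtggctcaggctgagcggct
EGR1: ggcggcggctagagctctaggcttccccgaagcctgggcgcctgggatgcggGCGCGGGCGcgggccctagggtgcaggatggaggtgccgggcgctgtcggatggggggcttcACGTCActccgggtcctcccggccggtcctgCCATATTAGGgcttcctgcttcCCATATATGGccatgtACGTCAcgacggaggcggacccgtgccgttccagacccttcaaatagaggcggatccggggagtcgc
DUSP1: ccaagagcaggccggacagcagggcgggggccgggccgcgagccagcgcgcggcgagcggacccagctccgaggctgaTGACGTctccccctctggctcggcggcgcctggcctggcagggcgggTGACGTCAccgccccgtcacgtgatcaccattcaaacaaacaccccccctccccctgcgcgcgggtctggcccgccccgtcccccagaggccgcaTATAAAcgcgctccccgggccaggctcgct
JUN: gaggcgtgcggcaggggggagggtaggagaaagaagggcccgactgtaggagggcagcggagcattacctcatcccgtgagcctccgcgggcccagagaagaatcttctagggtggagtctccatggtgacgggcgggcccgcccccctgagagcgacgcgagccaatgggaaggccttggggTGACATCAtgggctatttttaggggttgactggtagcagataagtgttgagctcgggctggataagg

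Motifs were searched on both strands. The core TGACGT of the cyclic AMP response element, the site of CREB and ATF proteins, was found in FOS, FOSB, EGR1 and DUSP1 and not in JUNB, JUN or DUSP6, and 7.10% of all 35116 RefSeq windows of this length hold it. In FOS it lies from −64 to −59 and in FOSB from −60 to −55, counted from the base before the start as −1. DUSP1 holds the core 3 times, and a pair of these overlap as the full element TGACGTCA from −125 to −118, which 1.65% of windows hold. EGR1 holds the core 2 times on the other strand. Among the 7 windows, only that of EGR1 held a CArG box, the site of serum response factor, which 1.16% of all windows hold. Sequence outside the windows was not searched, so a member without a match could hold this box, or another motif, further from the start. EGR1 holds the CArG box from −105 to −96 and again from −83 to −74. It further holds an EGR site, GCGNGGGCG, from −198 to −190, found in 8.41% of windows. JUN holds TGACATCA, its own AP-1 type site, from −67 to −60, found in 2.37% of windows. The TATA box TATAAA was found in FOS, FOSB, JUNB and DUSP1 and in 10.7% of windows. The ETS core CCGGAA was found in FOSB and in 14.5% of windows, and the AP-1 site TGANTCA in none of the 7 windows and 6.57% of all. No motif searched was found in the window of DUSP6. A match is a description of the letters and not of binding.

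**Figure D2:**
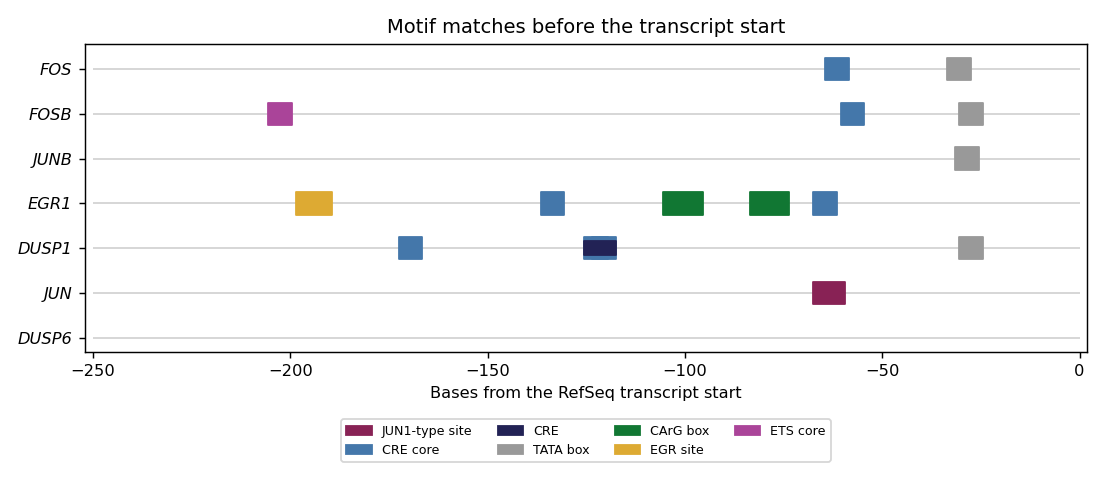
Motif matches in the 250 bases before the RefSeq transcript start of 7 members, with the distance from the start in bases on the x axis and a coloured block for each match. The CRE core appears in FOS, FOSB, EGR1 and DUSP1, which fell, but not in JUNB, which also fell, and the line of DUSP6 is empty.

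Among the FOS subunits, FOS and FOSB fell and FOSL1 rose. FOS encodes the classical partner of JUN and is on chromosome 14, from 75278826 to 75282230 on the plus strand in GENCODE release 44 on GRCh38. In the order of the replicates, as in all lists of 3 values here, its CPM was 48.2, 49.3 and 49.7 in NC and 13.3, 13.5 and 11.9 in OE. The NC samples differed by less than 2 units and all lay above all OE samples. Taken as OE over NC throughout, its log2 fold change was −1.93 (standard error 0.07, adjusted p = 1.0e-14 from edgeR), a fold change of 0.263, and 0.548% of all tested genes had a lower log2 fold change. FOSB, a close relative of FOS, had a CPM of 115, 135 and 126 in NC and 44.8, 38.9 and 37.2 in OE. NC replicate 2 was the highest, and the groups were far apart. Its log2 fold change was −1.64 (standard error 0.07, adjusted p = 7.0e-14 from edgeR), and −1.58 without NC replicate 2. FOSB (chromosome 19, 45467995 to 45475179, plus strand) overlaps ERCC1 on the opposite strand. Whether the counting used strand is not given in the sources used here, so the reads of the pair could be mixed. ERCC1 had a mean CPM of 17.5 (SD 1.29, n = 3) in NC against 19.7 (SD 1.91, n = 3) in OE, with an edgeR log2 fold change of 0.17 and adjusted p = 0.11.

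FOSL1, or FRA1, is the FOS relative that lacks the transactivation domain of FOS and accumulates under sustained ERK signalling. Its CPM was 271, 267 and 274 in NC and 505, 516 and 469 in OE. OE replicate 3 was the lowest of its group and still far above every NC sample. The log2 fold change was 0.88 (standard error 0.05, adjusted p = 1.3e-11 from edgeR), a 1.84-fold rise. FOSL1 (chromosome 11, 65892049 to 65900573, minus strand) overlaps no other annotated gene, nor does FOS.

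The JUN subunits also split. JUN (chromosome 1, 58776845 to 58784048, minus strand), the most counted member of the AP-1 set, is a single-exon gene that can activate its own transcription. Its CPM was 449, 437 and 451 in NC and 619, 603 and 590 in OE. The spread within each group was small beside the gap between them, and the log2 fold change was 0.44 (standard error 0.05, adjusted p = 2.2e-07 from edgeR). JUNB, which can oppose JUN on some promoters, had a CPM of 93.7, 91.9 and 95.1 in NC and 48.1, 49.2 and 51.1 in OE. Each NC sample was well above each OE sample. Its log2 fold change was −0.92 (standard error 0.05, adjusted p = 8.8e-12 from edgeR), a fold change of 0.529 that just missed the threshold of 0.5. JUNB (chromosome 19, 12791486 to 12793315, plus strand) overlaps HOOK2 on the opposite strand, whose mean CPM was 67.6 (SD 3.79, n = 3) in NC against 49.0 (SD 4.34, n = 3) in OE, with an edgeR log2 fold change of −0.46 and adjusted p = 4.8e-06. The part of HOOK2 reads in the count of JUNB was not tested.

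EGR1 (chromosome 5, 138465479 to 138469303, plus strand) encodes an early growth response factor that binds GC-rich promoters. Its CPM was 133, 126 and 127 in NC and 73.4, 75.0 and 75.8 in OE. The samples of each group lay close together and the groups did not overlap. Its log2 fold change was −0.78 (standard error 0.05, adjusted p = 5.0e-11 from edgeR), 1.72-fold lower. Its fall was smaller than those of FOS and FOSB, and its 95% interval of −0.89 to −0.68 overlapped neither that of FOS, from −2.08 to −1.78, nor that of FOSB, from −1.78 to −1.49, while FOS and FOSB overlapped slightly.

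**Figure D3:**
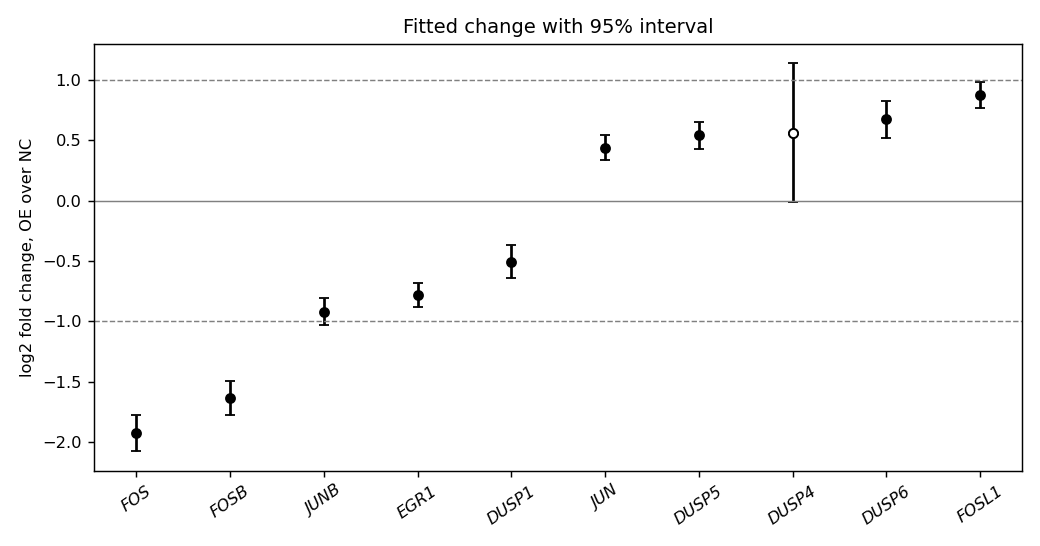
Fitted log2 fold change of OE over NC for the 10 members, with 95% intervals from edgeR, filled where the adjusted p is under 0.05 and open for DUSP4, with dashed lines at a fold change of 2 in either direction. FOS and FOSB lie below the lower line, at −1.93 and −1.64, and FOSL1 is the highest at 0.88.

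Of the DUSP members, DUSP1 fell and DUSP5 and DUSP6 rose. DUSP1 (chromosome 5, 172768096 to 172771195, minus strand) is a nuclear phosphatase that acts mostly on p38 and JNK. Its CPM was 99.7, 109 and 122 in NC and 83.6, 76.0 and 73.5 in OE. This was the most variable of the well-counted members in NC, with a coefficient of variation of 10.1%, and the groups were still apart. The log2 fold change was −0.51 (standard error 0.07, adjusted p = 1.9e-06 from edgeR), and −0.42 to −0.57 with each sample left out in turn. DUSP5 (chromosome 10, 110497907 to 110511533, plus strand), a nuclear phosphatase for ERK, had a CPM of 44.7, 42.9 and 45.6 in NC and 65.9, 64.5 and 63.5 in OE. All 3 OE samples were above all NC samples by more than the spread within a group. Its log2 fold change was 0.54 (standard error 0.05, adjusted p = 5.4e-08 from edgeR). DUSP6 (chromosome 12, 89347235 to 89352501, minus strand), the cytoplasmic phosphatase for ERK and a known feedback target of it, had a CPM of 25.5, 30.5 and 28.3 in NC and 46.2, 41.3 and 47.2 in OE. OE replicate 2 was the lowest of OE, and NC replicate 2 the highest of NC, without overlap. Its log2 fold change was 0.67 (standard error 0.07, adjusted p = 2.0e-07 from edgeR), and 0.74 without NC replicate 2. DUSP1 and DUSP6 each overlap an unnamed gene on the opposite strand, and DUSP5 none.

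DUSP4, a nuclear phosphatase for ERK, JNK and p38, was barely detected. Its counts were 24, 22 and 29 in NC and 40, 41 and 37 in OE. The groups did not overlap. The log2 fold change was 0.56 (standard error 0.28, adjusted p = 0.099 from edgeR), with a 95% interval of −0.01 to 1.14. A rise as large as that of DUSP5 or DUSP6 therefore lies within its interval, as does 0. On the FPKM scale its log2 difference was 0.06 with a pseudocount of 1 and 0.30 with 0.1. The lowest count of any other member in any sample was 432.

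The FPKM values, which are per length of gene, allow only a rough comparison of the members. The lengths used are not given in the sources used here. In NC, FOS had a mean CPM of 49.1 and a canonical transcript of 2104 bases in GENCODE, against 44.4 and 2477 for DUSP5. Its FPKM was still the lower, so these transcript lengths were not used for both. The order below, and the family shares that follow, depend on the lengths used. In NC the order of the mean FPKM was FOSL1 at 132, JUN at 113, DUSP1 at 50.5, JUNB at 47.1, EGR1 at 37.8, FOSB at 20.8, DUSP5 at 16.1, FOS at 14.2, DUSP6 at 6.71 and DUSP4 at 0.0900. The samples of DUSP1 and JUNB overlapped in NC, while other neighbours in this order did not. In OE it was FOSL1 at 246, JUN at 156, DUSP1 at 36.0, JUNB at 25.3, DUSP5 at 23.8, EGR1 at 22.3, DUSP6 at 10.9, FOSB at 6.78, FOS at 3.78 and DUSP4 at 0.133. No neighbours in that order overlapped. DUSP5 thus stood below EGR1 in NC and above it in OE, and DUSP6 moved from below FOS and FOSB to above them.

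The mix of AP-1 transcripts was set out as shares of the summed FPKM of each family, with FOSL2 and JUND added to complete the families. FOSL1 made up 73.0%, 71.3% and 72.3% of the FOS family in NC and 88.3%, 89.0% and 88.1% in OE. FOS made up 7.75% ± 0.0448 (SD, n = 3) in NC against 1.36% ± 0.0333 (SD, n = 3) in OE, and FOSB 11.4% ± 0.848 (SD, n = 3) and 2.44% ± 0.200 (SD, n = 3). FOSL2 made up 8.67% ± 0.038 (SD, n = 3) in NC against 7.745% ± 0.464 (SD, n = 3) in OE. The summed FPKM of the family was 183 ± 2.49 (SD, n = 3) in NC against 278 ± 10.3 (SD, n = 3) in OE, so the family held more transcript in OE while FOS and FOSB held less. In the JUN family, JUN made up 55.2% ± 0.410 (SD, n = 3) in NC against 68.9% ± 0.711 (SD, n = 3) in OE. JUNB went from 23.0% ± 0.248 (SD, n = 3) to 11.2% ± 0.508 (SD, n = 3). JUND, which is known to be expressed without a stimulus, made up 21.8% ± 0.642 (SD, n = 3) and 19.96% ± 0.371 (SD, n = 3), and its CPM was 93.7 in NC and 93.2 in OE (adjusted p = 0.91 from edgeR).

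Among the 4 DUSP members, the share of DUSP1 was 68.7% ± 1.70 (SD, n = 3) in NC against 50.8% ± 1.38 (SD, n = 3) in OE. The share of DUSP5 was 22.1% ± 1.61 (SD, n = 3) and 33.6% ± 0.892 (SD, n = 3), and that of DUSP6 was 9.16% ± 0.744 (SD, n = 3) and 15.3% ± 1.08 (SD, n = 3). The summed FPKM of the 4 genes was 73.4 ± 5.38 (SD, n = 3) in NC against 70.9 ± 2.12 (SD, n = 3) in OE, which differed by less than the spread in NC (exact two-sided permutation p = 0.7). For each of the shares, and for the sums of the FOS and JUN families, the exact permutation p was 0.1. These shares describe mRNA and not protein.

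**Figure D4:**
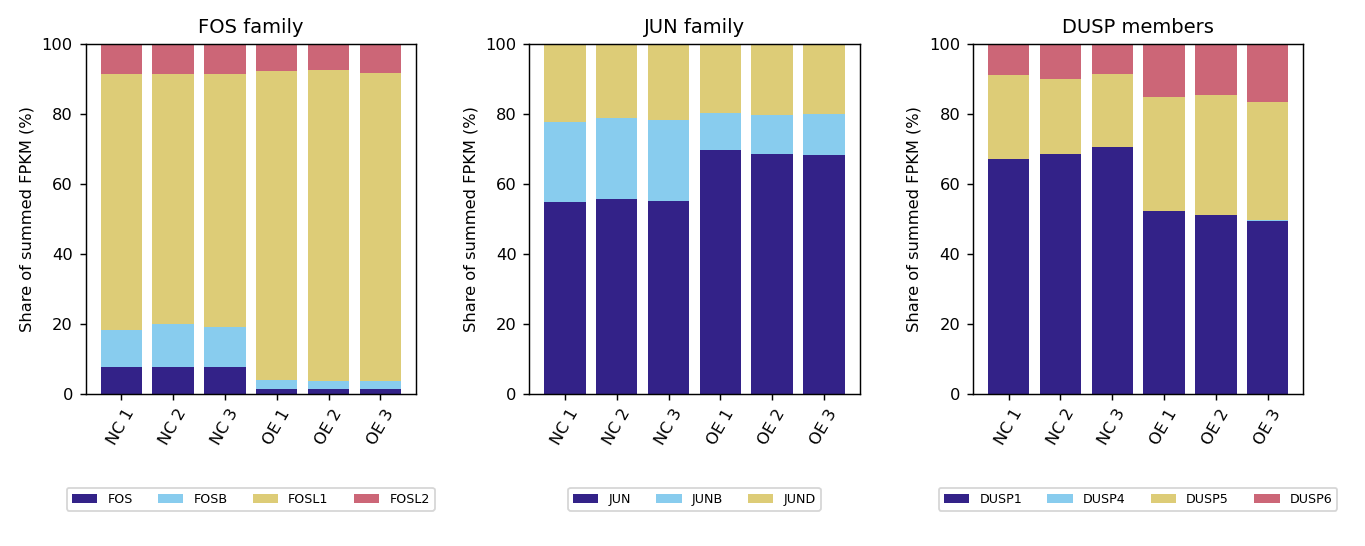
Share of the summed FPKM, in percent, of each gene in the FOS family, the JUN family and the 4 DUSP members, with a stacked bar for each sample. FOSL1 fills about 72% of the FOS bars in NC and 88% in OE, JUNB shrinks from 23.0% to 11.2%, and DUSP4 is too small to see.

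The other genes of the pathway were taken from lists and are described by counts beside the share of all tested genes, 23.7% lower and 24.9% higher, with a median log2 fold change of −0.0032 over all tested genes. No list was tested as a set. Of 12 tested AP-1 relatives, 5 rose and 3 fell past the threshold, with a median log2 fold change of 0.11. JDP2, a repressor of AP-1, rose from a CPM of 46.0 to 73.1 (0.67 on the log2 scale, edgeR adjusted p = 1.4e-09). FOSL2 rose by 0.42 on the log2 scale, while MAF fell by 1.24 and MAFK by 0.48. Of 26 other immediate early genes, 12 were lower and 8 higher, and 10 and 7 without NC replicate 2. ZFP36, which encodes an mRNA decay factor, fell from a CPM of 48.8 to 17.8 (−1.46 on the log2 scale, edgeR adjusted p = 1.3e-12). The nuclear receptors NR4A2 and NR4A1 fell by 2.43 and 1.70 on the log2 scale, from a CPM of 4.69 and 3.24. EGR3, with 8 to 55 counts, had a fitted log2 difference of −1.56 (edgeR adjusted p = 0.0050), and of −0.97 that did not pass without NC replicate 3. KLF4, an epithelial transcription factor, rose from 7.92 to 27.4 (1.79 on the log2 scale, edgeR adjusted p = 5.5e-13). PPP1R15A, which restores translation after stress by dephosphorylating eIF2alpha and is also induced by ATF4, had a log2 fold change of 1.02.

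Of 13 tested genes known as outputs of ERK, 11 were higher and 1 lower, with a median log2 fold change of 0.51, and without NC replicate 2 these were 10 and 1. Among them were CCND1, the cyclin of the G1 phase, at 173 CPM in NC and 304 in OE (0.81 on the log2 scale, edgeR adjusted p = 4.1e-11), and the ETS factors ETV5 and ETV4, with log2 fold changes of 0.93 and 1.12. PHLDA1 rose by 0.61 on the log2 scale. The exception was the ephrin receptor EPHA4, which fell from 3.17 to 1.41 CPM. Of the 19 genes of the RAS, RAF and ERK cascade itself, 5 were higher and 1 lower, and 13 passed in neither direction. The share that was higher is near the 24.9% of all tested genes. With DESeq2 size factors, upper quartile normalization, library size alone or the replicate block, 4 were higher. With upper quartile normalization or without NC replicate 2, 2 were lower. EGFR, the receptor for EGF, rose from 181 to 285 CPM (0.66 on the log2 scale, edgeR adjusted p = 8.9e-10), and NRAS and BRAF had log2 fold changes of 0.30 and 0.37. In the JNK and p38 cascades, 6 of 16 genes were lower and 2 higher. Under the replicate block 4 were lower, a share near that of all tested genes. MAP3K1 had a log2 fold change of −0.81, MAPK10 of −1.01 and MAP3K5 of −0.31, and MAPK13, a p38 isoform, had 0.67. MAPK10 had a mean CPM of 4.52 in NC and 2.23 in OE, with a mean FPKM of 0.1 and 0.05, and it overlaps other annotated genes. It no longer met the fold rule without NC replicate 3 or without OE replicate 1.

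Of 6 other MAP kinase phosphatases, 3 were higher and 1 lower, and 2 were higher under each of the other scalings, without NC replicate 2 and with the replicate block. DUSP10, which acts on JNK and p38, rose by 0.64 on the log2 scale (adjusted p = 6.6e-07 from edgeR). DUSP7 at 0.44, DUSP16 at 0.17 and DUSP9 at −0.49 passed with all samples, and each no longer passed without NC replicate 1. DUSP7 was also lost without NC replicate 3 and DUSP9 without OE replicate 2. With 1 sample left out, DUSP16 passed only without OE replicate 1. Of 10 atypical dual-specificity phosphatases, DUSP12 and DUSP3 rose, by 0.77 and 0.19. DUSP22, at −0.22, no longer passed without NC replicate 1, NC replicate 3, OE replicate 1 or OE replicate 3.

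Among 13 regulators of the members, 7 were higher and 2 lower, with a median of 0.24. ATF1 and CREM, which bind cyclic AMP response elements, rose by 0.55 and 0.58 on the log2 scale, the kinase gene RPS6KA5 by 0.56 and the ternary complex factor ELK3 by 0.40. Of 13 cytoskeletal genes that serum response factor and its MRTF partners are known to drive, 9 were lower and 2 higher, with a median of −0.41. TAGLN fell from 98.1 to 23.5 CPM (−2.06 on the log2 scale, edgeR adjusted p = 1.6e-16), CNN1 by 1.72, MYL9 by 1.26 and CNN2 by 0.65 on the log2 scale.

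Genes known as targets of the members went both ways. Of 8 tested EGR1 targets, 5 were lower and 1 higher, with a median of −0.36. THBS1, an extracellular matrix protein, fell by 0.99 on the log2 scale, the prostaglandin synthase PTGES by 1.02, tissue factor F3 by 0.67 and PDGFB by 0.39. Of 11 tested AP-1 targets, 6 were lower and 4 higher. IL6 fell from 60.4 to 29.0 CPM, the collagenase MMP1 from 14.0 to 5.28 and the chemokine CCL2 from 6.29 to 2.17. The gelatinase MMP9 rose from 0.927 to 3.69 and the urokinase receptor PLAUR from 139 to 218. By RT-PCR on the same RNA samples, the study reported IL6 and CCL2 as significantly higher in OE, against the direction of the counts. Many of the genes named from the lists overlap other annotated genes, among them IL6, MMP1, MMP9, PLAUR, THBS1, TAGLN and MYL9. Their counts are uncertain where strand was not used. THBS1 and TAGLN overlap genes on both strands, so their counts may be uncertain even where strand was used.

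**Figure D5:**
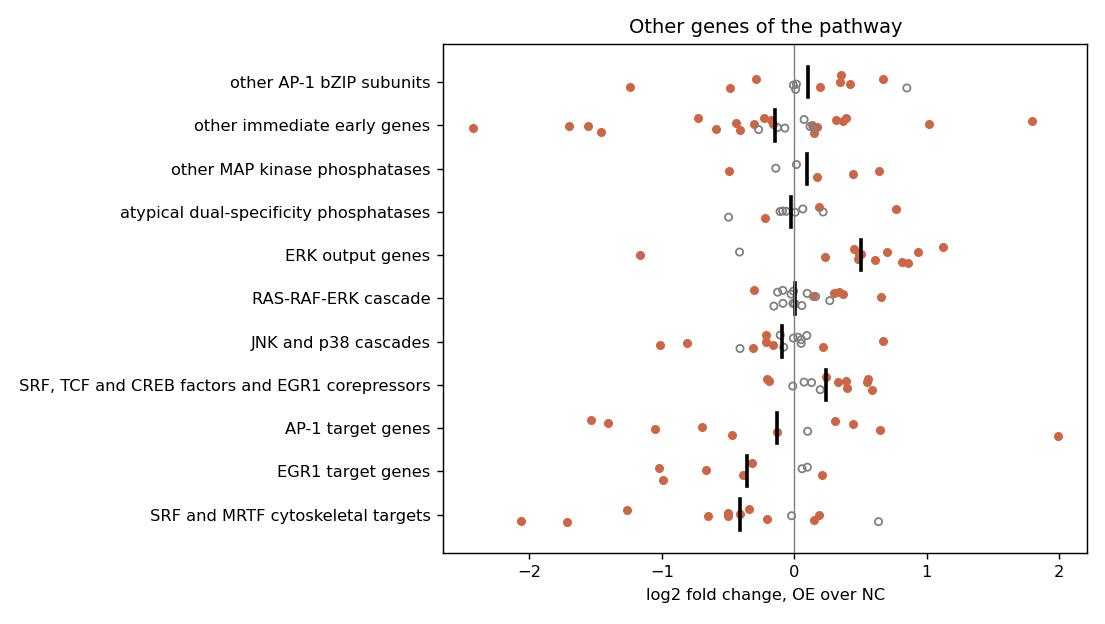
Log2 fold change of OE over NC for each tested gene of 11 lists of the pathway, filled where the edgeR adjusted p is under 0.05, with a black bar at the list median and a grey line at the median of all tested genes, −0.0032. The ERK output genes have the highest median, 0.51, and the cytoskeletal genes the lowest, −0.41.

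The tested genes whose profile over the 6 samples was most like that of a member were sought among 10476 genes with a mean CPM of at least 5, by the root mean square difference of log2 CPM centred on its mean. For FOS these were ZBED2 at 0.06, CD24 at 0.06 and HCG22 at 0.07, with log2 fold changes of −1.95, −1.82 and −2.06. For EGR1 they were CDKN2C, PHLDB1 and CHRDL1, at 0.03, 0.03 and 0.04. For DUSP6 they were SLC39A14 at 0.02, ABHD5 at 0.04 and IFIH1 at 0.05.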

How the data were processed

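RNA of 6 HK-2 samples, 3 NC and 3 OE, was sequenced from stranded libraries. Reads were trimmed with FASTX-Toolkit and mapped to GRCh38 by HISAT2, and the authors deposited counts of unique reads for each gene, together with FPKM to 2 decimals. The submitters' processing notes also list mm10. The annotation release, the counting program and its use of strand are not given in the sources used here.

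Counts were tested with edgeR 4.0.16 (filterByExpr, TMM, glmQLFit, glmQLFTest) in R 4.3.3 over 15878 genes. DESeq2 1.42.0 (the test in the study's methods) and limma 3.58.1 (FPKM on the log2 scale, pseudocount 1 or 0.1) served as alternatives, beside other normalizations and filters, a replicate block and each sample left out. The script was tested on simulated data. GENCODE release 44 gave positions and gene-span overlaps, and RefSeq the promoters. Members, lists and motifs were chosen with earlier results of these data known.

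Named are all members and, of each list, the 4 with the smallest adjusted p (mean count 20 or more) and those past the fold rule, and the 3 most alike to FOS, EGR1 and DUSP6. Marker genes at or near 0, JUND, ERCC1 and HOOK2 are named beyond this rule, and 1 gene it picks is not reported here. Figures used matplotlib 3.10.9.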

Additional observations from a re-analysis of the deposited data

How the results depend on the processing

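The 5 members lower and 4 higher in OE passed under every alternative but the test against a fold change of 2, where 2 were lower (FOS and FOSB) and 0 higher by edgeR, since that test asks for a larger change by its construction. Leaving out 1 sample gave 5 lower and 4 higher each time, and 2 and 0 with the fold rule. Over all alternatives, 162 of the members' log2 fold changes kept direction and side of the threshold, and the other 7 lost the threshold in that same test. Same-numbered samples did not deviate together (correlations of −0.000865, −0.0588 and −0.0452), and the replicate block gave 5 lower and 4 higher members, with 2 called lower and 0 higher by the fold rule. The block, and upper quartile normalization, each took the 8 higher genes of the other immediate early list to 5, and the 2 higher cytoskeletal genes to 1. Leaving out NC replicate 2 also took the latter to 1 and, like the block, the 2 lower regulators to 1. The block took the 6 lower JNK and p38 genes to 4. The alternatives for these lists, and library size alone for the members, were chosen after seeing the data. Over all genes, the 875 called with the fold rule became 186 in the test against a fold change of 2, and 123, 125 (with a filter on FPKM) or 513 (smaller pseudocount) by limma. The FPKM values, compressed by the pseudocount, gave FOS −1.88 to −1.67 and DUSP4 0.06 to 0.30. DUSP4 had an adjusted p of at most 0.273 (edgeR, DESeq2 or limma) outside that test and lacked a value where FPKM of at least 1 was required. DUSP4 had the fewest counts and the largest standard error of the members, 0.28, and the effect of depth on it was not tested.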
